A study of Mus musculus with 2 samples.

Results

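The metalloproteases and their inhibitors were 85 of the 33696 genes listed in both libraries. They were chosen by symbol alone, as every matrix metalloproteinase (Mmp, 23 genes), every Adam gene followed by a number (34), every Adamts gene (19), every ADAMTS-like gene (Adamtsl, 5) and Timp1 to Timp4 (4). No measured value entered the choice.

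The cells came from the tibialis anterior, a muscle of the front of the lower leg, of mice; the titles call the muscle ND, an abbreviation the labels do not spell out. One library was labelled KO and the other WT, and each held cells pooled from 10 muscles of 5 male mice. The labels give neither the deleted gene, the allele, the Cre driver nor the age, and the title of the series concerns autocrine IGF-I of mesenchymal progenitors. The labelled cell type was FAPs, fibro-adipogenic progenitors, although the protocol describes a sort of viable cells only, and both libraries held many other cell types by their markers. With 1 library per genotype no test was possible. Ratios below compare 2 libraries, intervals are 95% and cover counting error only, and genotype, pool and library cannot be told apart.

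Matrix metalloproteinases are zinc enzymes that cut collagens, gelatins and other matrix and surface proteins, and most are made as inactive precursors. ADAM proteins are membrane-anchored relatives, of which ADAM10 and ADAM17 shed ligands and receptors from the cell surface, while others such as ADAM11, ADAM22 and ADAM23 lack a working catalytic site. ADAMTS enzymes are secreted and cut proteoglycans such as versican and aggrecan or process procollagens, and ADAMTS-like proteins share their ancillary domains but no protease. TIMPs are small secreted inhibitors of these enzymes. In muscle, fibro-adipogenic progenitors and tendon cells are major makers of the collagen matrix on which they act.

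The deposited barcodes numbered 19531 in the KO-labelled library and 11360 in the WT-labelled library, with 101570863 and 38014703 unique molecular identifiers (UMIs, each a counted RNA molecule tag). After filters 17946 and 10184 barcodes were kept, and 54 kept barcode sequences occurred in both libraries. Clusters were named from marker lists and are called X-like, and 10 classes with at least 100 cells in each library were compared. FAP-like cells numbered 1067 in the KO-labelled library and 1544 in the WT-labelled library, with a median of 10503 and 5471 UMIs per cell. A cluster of low-UMI barcodes without a usable name was found in the KO-labelled library and was not used. Its barcodes are among the 17946 kept. A far larger part of the KO-labelled library than of the WT-labelled library thus lay outside the named classes. Igf1 stood at 396 CPM (UMIs of a gene with the total of the class scaled to 1000000) in the FAP-like cells labelled KO and 369 CPM in those labelled WT. It was lower in tenocyte-like cells labelled KO (76.7 and 236 CPM) and macrophage-like cells labelled KO (28.8 and 75.1 CPM). In perineurial-like cells it was higher (136 CPM labelled KO and 72.0 CPM labelled WT). The labels do not place the deletion, and a 3′ tag outside a deleted part checks nothing.

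Of the 85 genes, 12 had no UMI in any kept barcode of either library. They were 11 Adam genes, among them the rodent testis genes Adam24, Adam25 and Adam34, and Mmp20, the enamel protease. A floor on level, set at 20 CPM in either library together with 100 UMIs in the pair, was passed in at least 1 class by 41 genes, made up of 10 Mmp, 11 Adam, 11 Adamts, all 5 Adamtsl and all 4 Timp genes. Of the 10 Mmp genes that lie together on chromosome 9 in RefSeq (GRCm38.p6), 2 passed it, Mmp3 and Mmp12. Of the other genes of that group, Mmp13, a collagenase, reached 18.6 CPM in macrophage-like cells of the KO-labelled library and 28.4 CPM in those labelled WT, from 33 and 48 UMIs, too few to pass the floor.

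**Figure D1:**
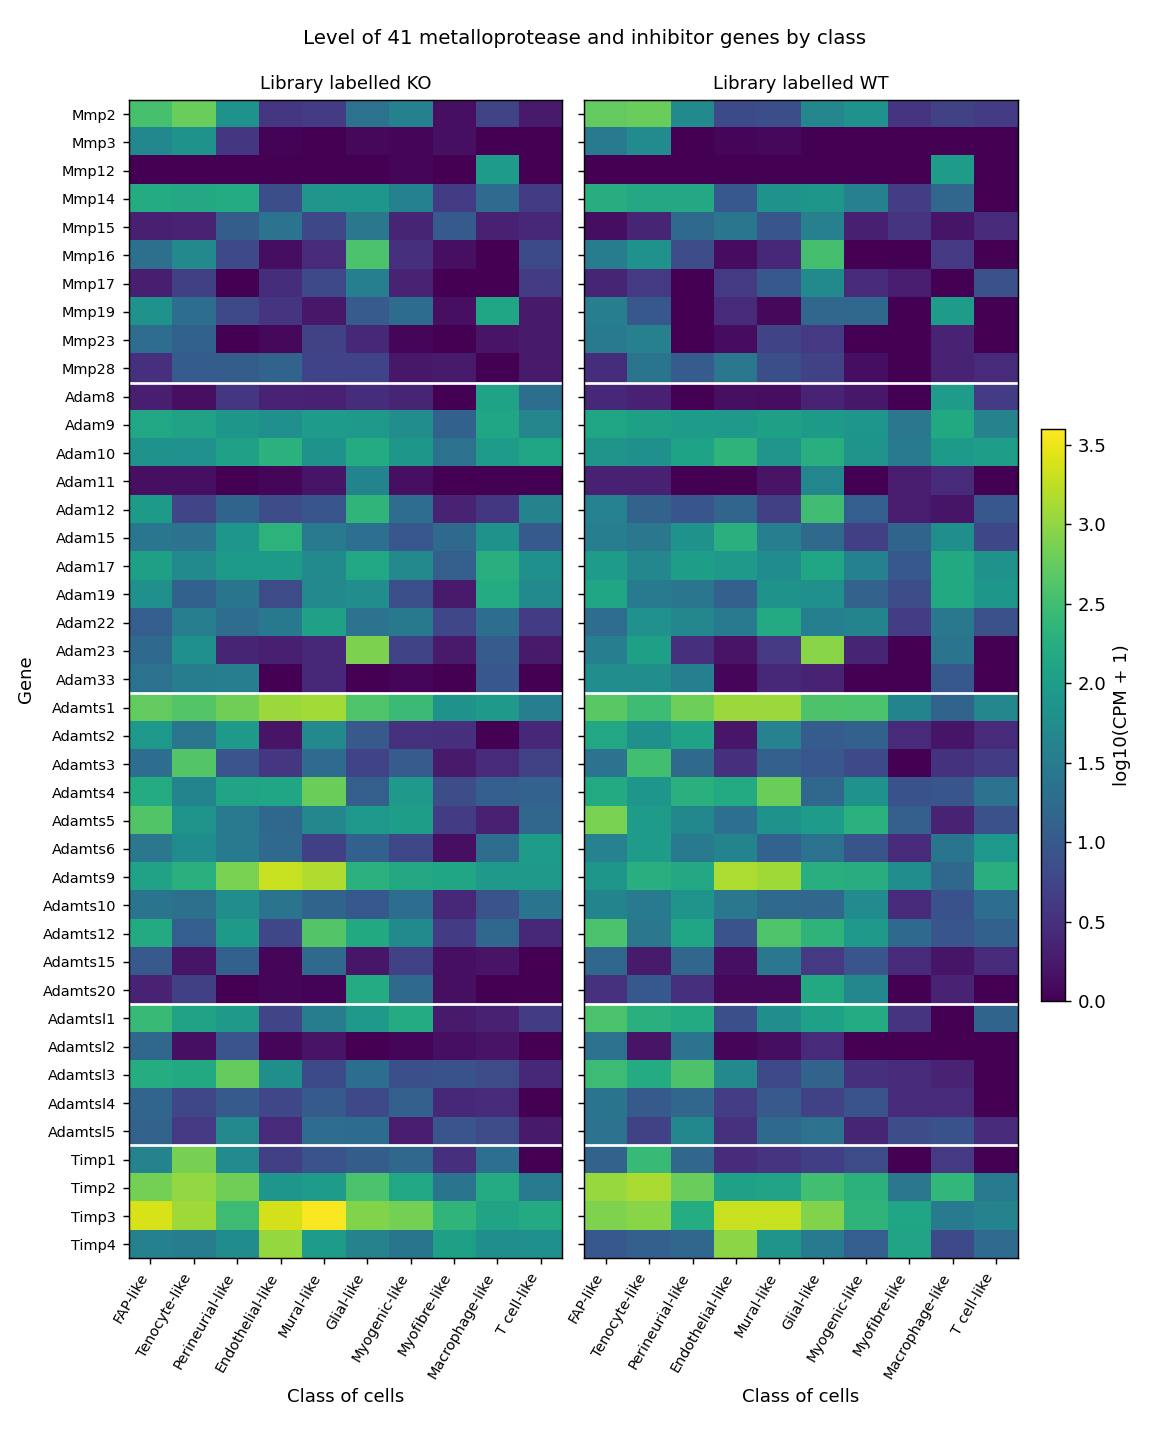
Colour gives log10(CPM + 1) of 41 genes (rows, by family) in 10 classes of cells (columns), for the KO-labelled library (left) and the WT-labelled library (right). Adamts9 is brightest in endothelial-like cells in both panels, followed by mural-like cells, Adam23 and Mmp16 in glial-like cells, and Timp1 and Adamts3 in tenocyte-like cells.

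The class with the highest CPM was the same in both libraries for 33 of the 41 genes. For 12 of them it exceeded the next class at least 3-fold in both libraries. Glial-like cells held 5 of these. Adam23, a non-catalytic ADAM that binds LGI proteins of nerve, stood at 780 CPM in glial-like cells of the KO-labelled library and 906 CPM in those labelled WT, against 63.4 and 110 CPM in tenocyte-like cells, the next class. The membrane-type metalloproteinase Mmp16 had 374 and 339 CPM in glial-like cells, and Mmp17, Adam11 and Adamts20 shared that preference.

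Tenocyte-like cells held Adamts3, a procollagen N-propeptidase, at 434 CPM in the KO-labelled library and 326 CPM in the WT-labelled library, against 19.2 and 22.5 CPM in FAP-like cells. They also held Timp1. Endothelial-like cells held Timp4, at 1081 CPM in the KO-labelled library and 935 CPM in the WT-labelled library. Mural-like cells, which comprise pericytes and smooth muscle of vessels, held the aggrecanase gene Adamts4 at 619 and 610 CPM. FAP-like cells held Adamts5, the main aggrecanase of mouse cartilage, at 417 and 740 CPM, against 100 and 197 CPM in myogenic-like cells. Macrophage-like cells held Adam8 at 118 and 92.8 CPM and Mmp12, macrophage elastase, at 92.7 and 97.6 CPM. A single barcode carried 51.2% of the Mmp12 UMIs of macrophage-like cells in the KO-labelled library and another 66.1% in the WT-labelled library, and 5.77% and 2.19% of the cells had any.

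Neutrophil-like cells were too few in the WT-labelled library for a comparison (220 cells in the KO-labelled library and 54 in the WT-labelled library), and their levels are given as a description. Mmp9, gelatinase B, stood at 552 and 556 CPM there, and Mmp8, neutrophil collagenase, at 2270 and 795 CPM. Adam8 stood at 622 and 470 CPM in these cells, above its level in macrophage-like cells, so its preference holds among the 10 compared classes and not over all cells. In monocyte-like cells, also too few to compare, Adam8 stood at 146 and 44.9 CPM. The broadly active sheddases had no class far above the next. Adam10 ranked highest in endothelial-like cells at 201 and 220 CPM, and Adam17 in macrophage-like cells at 179 and 153 CPM, each within 1.25-fold of the next class. Both were lowest in myofibre-like barcodes, Adam10 at 22.1 and 30.01 CPM and Adam17 at 11.5 and 8.83 CPM.

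In FAP-like cells 32 of the 85 genes passed the floor. A ratio of 1.5-fold or more above WT was reached by 6, and by 11.8% of all 7153 genes past the floor. Lower by 1.5-fold or more in the KO-labelled library were 13 of the 32, against 11.1% of all genes past the floor. The 6 are 18.8% and the 13 are 40.6% of the 32 genes. The median log2 ratio was -0.45 over the 32 genes and 0.02 over all 7153. The higher genes were the inhibitors Timp1, Timp3 and Timp4 and the proteases Adam12, Mmp19 and Mmp3. Among the lower ones were Timp2 and secreted or membrane proteases such as Adamts12, Adam33, Adam19 and Adamts5. The non-catalytic Adam23 and the protease-free Adamtsl3, Adamtsl4 and Adamtsl5 were also lower.

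**Figure D2:**
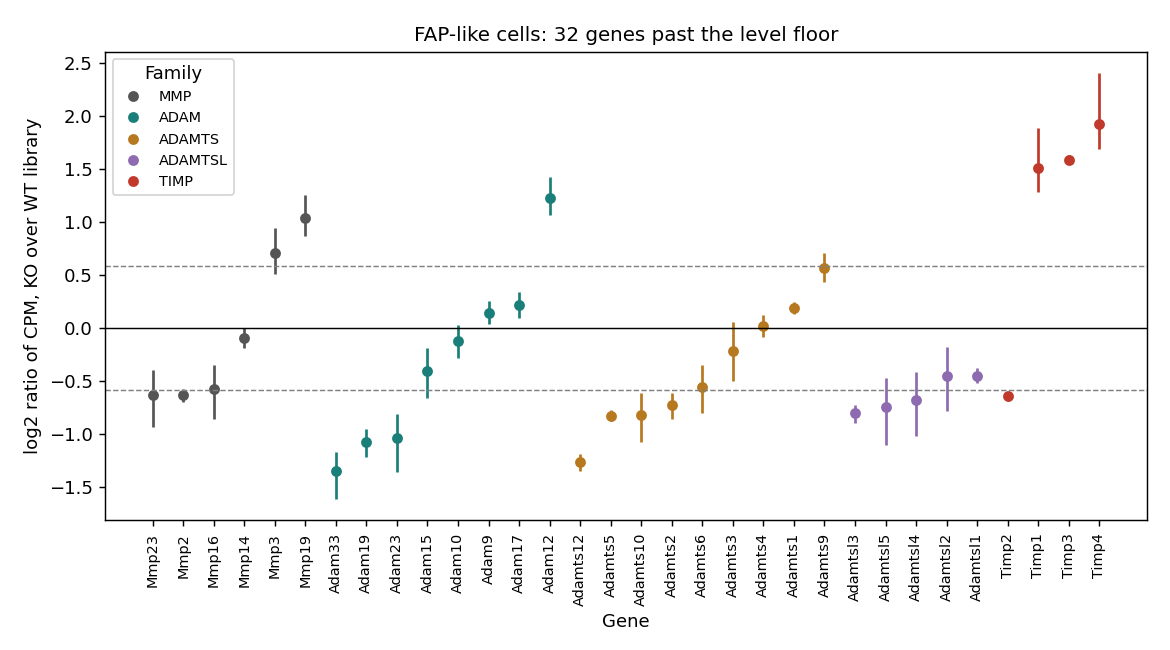
Points give the log2 ratio of CPM (pseudocount 1) in FAP-like cells, library labelled KO over library labelled WT, for the 32 genes past the floor, coloured by family. Vertical lines are 95% counting intervals and dashed lines mark 1.5-fold. Timp1, Timp3, Timp4, Adam12, Mmp19 and Mmp3 lie above the upper dashed line, and 13 genes lie below the lower one.

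Timp3, a TIMP that binds to the matrix and inhibits ADAM and ADAMTS enzymes as well as Mmps, stood at 2388 CPM in FAP-like cells labelled KO and 793 CPM in those labelled WT. Its log2 ratio was 1.59 (interval 1.55 to 1.63), and a UMI was found in 85.3% and 77.5% of the cells. With cells of at least 2000 UMIs thinned to 2000, and shallower cells left out, these shares were 71.3% and 62.9%. In T-cell-like cells, which should make little Timp3, the unthinned shares were 16.9% and 4.76% at median depths of 7728.5 and 3544 UMIs. Timp2, which also takes part in the activation of pro-MMP2, went the other way. It stood at 708 CPM in the KO-labelled library and 1106 CPM in the WT-labelled library, a log2 ratio of -0.64 (interval -0.69 to -0.60).

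Timp1, an inducible inhibitor, stood at 39.4 CPM in FAP-like cells labelled KO and 13.2 CPM in those labelled WT, a log2 ratio of 1.51. It was found in 15.3% and 4.73% of the cells, or 5.03% and 1.85% of thinned cells. Timp4 stood at 36.6 and 8.92 CPM, a log2 ratio of 1.92, and was found in 10.6% and 2.33% of the cells, or 4.14% and 0.855% of thinned cells. Markers of endothelial cells, the class that holds Timp4, moved in the same direction. The 12 endothelial markers summed to 534 CPM in FAP-like cells labelled KO and 440 CPM in those labelled WT, 11 of the 12 being higher in the KO-labelled library and none at 0. UMIs of 3 or more endothelial markers occurred in 21.4% of the FAP-like cells labelled KO and 6.35% of those labelled WT. Without those cells, an alternative chosen after seeing the data, the log2 ratio was 1.00 for Timp4, 1.58 for Timp1, 1.49 for Timp3 and 0.12 for Mmp3.

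In the RefSeq annotation (GRCm38.p6) Timp1, Timp3 and Timp4 lie within the genes Syn1, Syn3 and Syn2, which encode synapsins of neurons. Reads of a nested gene and its host can be hard to assign if both lie on the same strand, and their strands were not compared here. Syn3 was counted at 67.9 CPM in FAP-like cells labelled KO and 26.0 CPM in those labelled WT. Syn2 stood at 25.1 and 11.6 CPM there, and Syn1 at 4.98 and 3.50 CPM. Syn3 was also higher in mural-like (129 and 88.8 CPM) and myogenic-like cells (28.4 and 10.7 CPM). It was not higher in tenocyte-like (43.7 and 43.8 CPM) or endothelial-like cells (77.8 and 80.8 CPM), where Timp3 had log2 ratios of 0.41 and 0.24. Whether those UMIs belong to the synapsin or to the Timp gene was not tested.

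**Figure D3:**
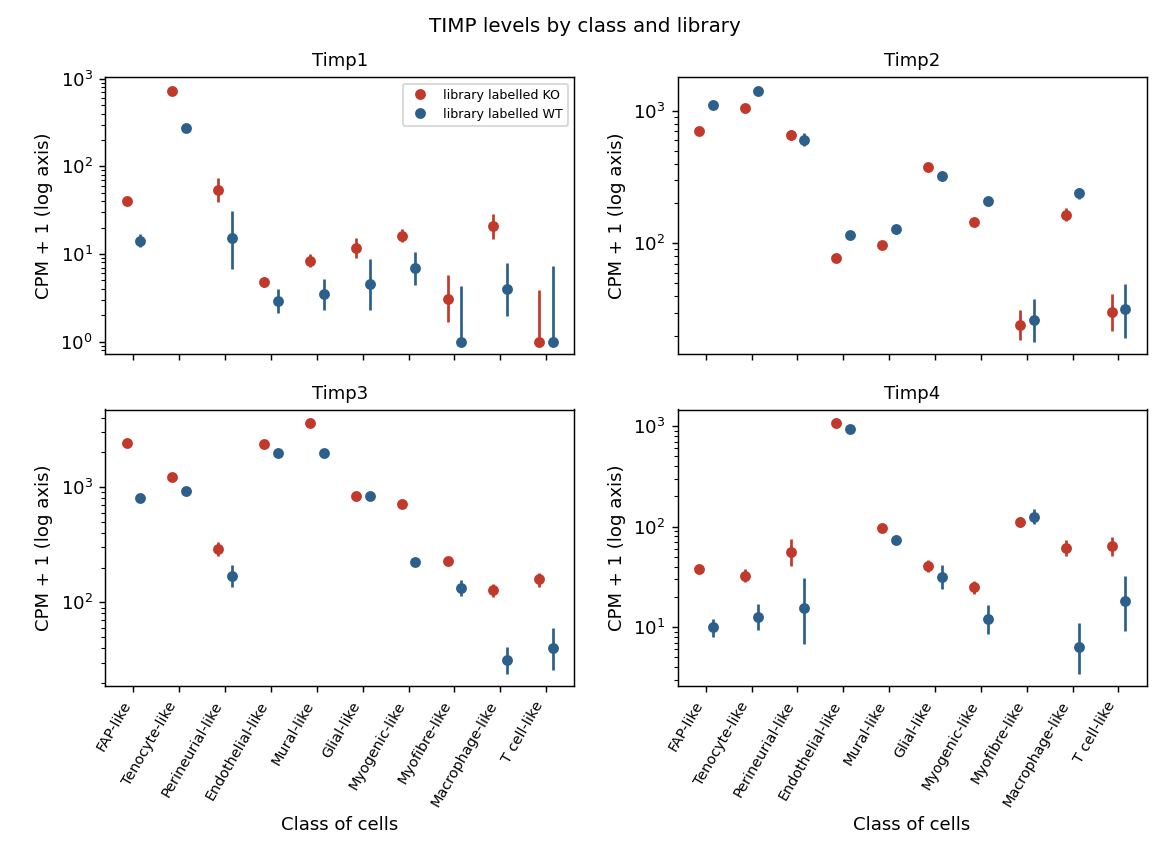
Points give CPM + 1 on a log axis for Timp1, Timp2, Timp3 and Timp4 in 10 classes of cells, red (left of each pair) for the KO-labelled library and blue for the WT-labelled library, with 95% Poisson counting intervals. Timp1 is highest in tenocyte-like cells and Timp4 in endothelial-like cells, and Timp2 is lower in the KO-labelled library in FAP-like, tenocyte-like and myogenic-like cells.

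Because Timp3 and Timp2 differed in opposite directions and Mmp3 was one of 2 Mmp genes higher in the KO-labelled library, the 250 bases before their annotated starts are shown from RefSeq (GRCm38.p6). Capitals mark matches, on either strand, to an AP-1 element (TGANTCA), a GC box (GGGCGG) or a TATA box (TATAAA).
Timp3 (chr10:86300162-86300411, + strand): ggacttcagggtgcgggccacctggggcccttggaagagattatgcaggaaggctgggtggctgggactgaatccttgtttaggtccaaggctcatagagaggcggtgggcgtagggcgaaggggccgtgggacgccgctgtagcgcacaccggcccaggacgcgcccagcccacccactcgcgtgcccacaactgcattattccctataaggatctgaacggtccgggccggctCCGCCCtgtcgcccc
Timp2 (chr11:118355412-118355661, - strand): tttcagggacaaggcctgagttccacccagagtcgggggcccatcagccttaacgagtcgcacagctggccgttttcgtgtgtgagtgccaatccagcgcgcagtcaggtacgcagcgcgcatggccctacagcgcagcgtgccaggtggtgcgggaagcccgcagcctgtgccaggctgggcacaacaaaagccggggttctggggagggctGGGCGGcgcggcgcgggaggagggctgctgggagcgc
Mmp3 (chr9:7445572-7445821, + strand): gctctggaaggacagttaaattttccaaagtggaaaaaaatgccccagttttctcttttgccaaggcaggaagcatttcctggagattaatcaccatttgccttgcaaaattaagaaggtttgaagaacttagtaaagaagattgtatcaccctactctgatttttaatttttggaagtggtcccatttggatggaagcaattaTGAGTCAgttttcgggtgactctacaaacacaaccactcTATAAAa
The Timp3 and Timp2 stretches each held 1 GC box, 15 and 37 bases before the start, and neither of the other motifs. The Mmp3 stretch held an AP-1 element 46 bases and a TATA box 7 bases before the start. Over all 32851 promoter windows of this length in the table, 6.75% held the AP-1 element, 32.74% the GC box and 12.37% the TATA box. The table held 59 windows of 54 of the 85 genes. Of these, 12 windows (20.34%) held the AP-1 element, 24 (40.68%) the GC box and 13 (22.03%) the TATA box. Of the 10 Mmp genes on chromosome 9, 8 had a window with the AP-1 element. A match is only a run of letters and was not linked to binding or to the counts.

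Among the 6 Mmp genes past the floor, 2 were higher and 2 lower in FAP-like cells labelled KO, against 11.8% and 11.1% of all genes. Mmp2, gelatinase A and a constitutive product of fibroblasts, stood at 352 CPM in the KO-labelled library and 546 CPM in the WT-labelled library, a log2 ratio of -0.63 (interval -0.69 to -0.57). Mmp23 stood at 18.2 and 28.9 CPM, a log2 ratio of -0.64. Mmp19 stood at 70.7 and 34.0 CPM, a log2 ratio of 1.04, and was found in 33.3% and 14.3% of cells, or 10.5% and 5.56% with cells thinned to 2000 UMIs. Mmp3, stromelysin 1, stood at 46.6 and 28.2 CPM, a log2 ratio of 0.70, but in few cells, 5.90% and 6.22%. One cell carried 14.3% of all Mmp3 UMIs of the class in the KO-labelled library and another cell 13.6% in the WT-labelled library. Mmp14, the membrane collagenase that activates pro-MMP2, stood at 165 and 176 CPM, a log2 ratio of -0.10 (interval -0.19 to 0.00).

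Of the 8 Adam genes past the floor, 3 were lower and 1 was higher, against 11.1% and 11.8% of all genes. Adam33 stood at 21.7 CPM in FAP-like cells labelled KO and 56.8 CPM in those labelled WT, a log2 ratio of -1.35 (interval -1.61 to -1.17). Adam19, an active metalloprotease, stood at 63.8 and 135 CPM, a log2 ratio of -1.07. The non-catalytic Adam23 stood at 15.8 and 33.4 CPM, a log2 ratio of -1.04. Adam12, a protease of developing and regenerating mesenchyme, was the exception, at 90.8 and 38.3 CPM, a log2 ratio of 1.22 (interval 1.07 to 1.43). The sheddases Adam10 and Adam17 had log2 ratios of -0.13 and 0.22.

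The Adamts genes gave 4 lower and no higher calls among 9, against 11.1% and 11.8% of all genes past the floor. Adamts12 stood at 159 CPM in FAP-like cells labelled KO and 383 CPM in those labelled WT, a log2 ratio of -1.26 (interval -1.35 to -1.19). Among cells thinned to 2000 UMIs, 18.0% and 36.1% had an Adamts12 UMI. Adamts5 stood at 417 and 740 CPM, a log2 ratio of -0.83 (interval -0.88 to -0.77). Adamts2, the procollagen N-propeptidase, stood at 82.6 and 138 CPM, a log2 ratio of -0.73, and Adamts10, linked to fibrillin, at 22.9 and 41.2 CPM, a log2 ratio of -0.82. The versican-cutting Adamts1, Adamts4 and Adamts9 had log2 ratios of 0.19, 0.02 and 0.56, short of 1.5-fold.

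The 5 Adamtsl genes all had negative log2 ratios, and 3 passed 1.5-fold, against 11.1% of all genes past the floor. Adamtsl3 stood at 167 CPM in FAP-like cells labelled KO and 293 CPM in those labelled WT, a log2 ratio of -0.80. Adamtsl5 and Adamtsl4 had log2 ratios of -0.74 and -0.68, and Adamtsl1 and Adamtsl2 had -0.45 and -0.46. Summed over each family, TIMP genes held 3173 CPM in the KO-labelled library and 1922 CPM in the WT-labelled library, with Timp3 as 75.3% of the first sum and Timp2 as 57.6% of the second. Adamts genes summed to 1576 and 2129 CPM and Mmp genes to 688 and 864 CPM.

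FAP-like cells were split into 12 sub-clusters, with the genes described here left out of the clustering. Their mix differed between the libraries. A sub-cluster with F2rl1 and Thbs1 as leading genes held 247 cells of the KO-labelled library and 3 of the WT-labelled library, and the one led by Fbln7 and G0s2 held 75 and 538. Within the KO-labelled library, the F2rl1/Thbs1 cells had more Timp3 than the other FAP-like cells, 4114 against 1718 CPM, and more Adam12, 146 against 69.5 CPM. They had less Timp2 (450 against 809 CPM), Adamts12 (56.1 against 198 CPM), Adam33 (7.24 against 27.3 CPM) and Adamtsl3 (65.1 against 207 CPM). Outside that sub-cluster the FAP-like cells labelled WT held 793 CPM of Timp3, 1105.5 CPM of Timp2 and 383 CPM of Adamts12.

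**Figure D4:**
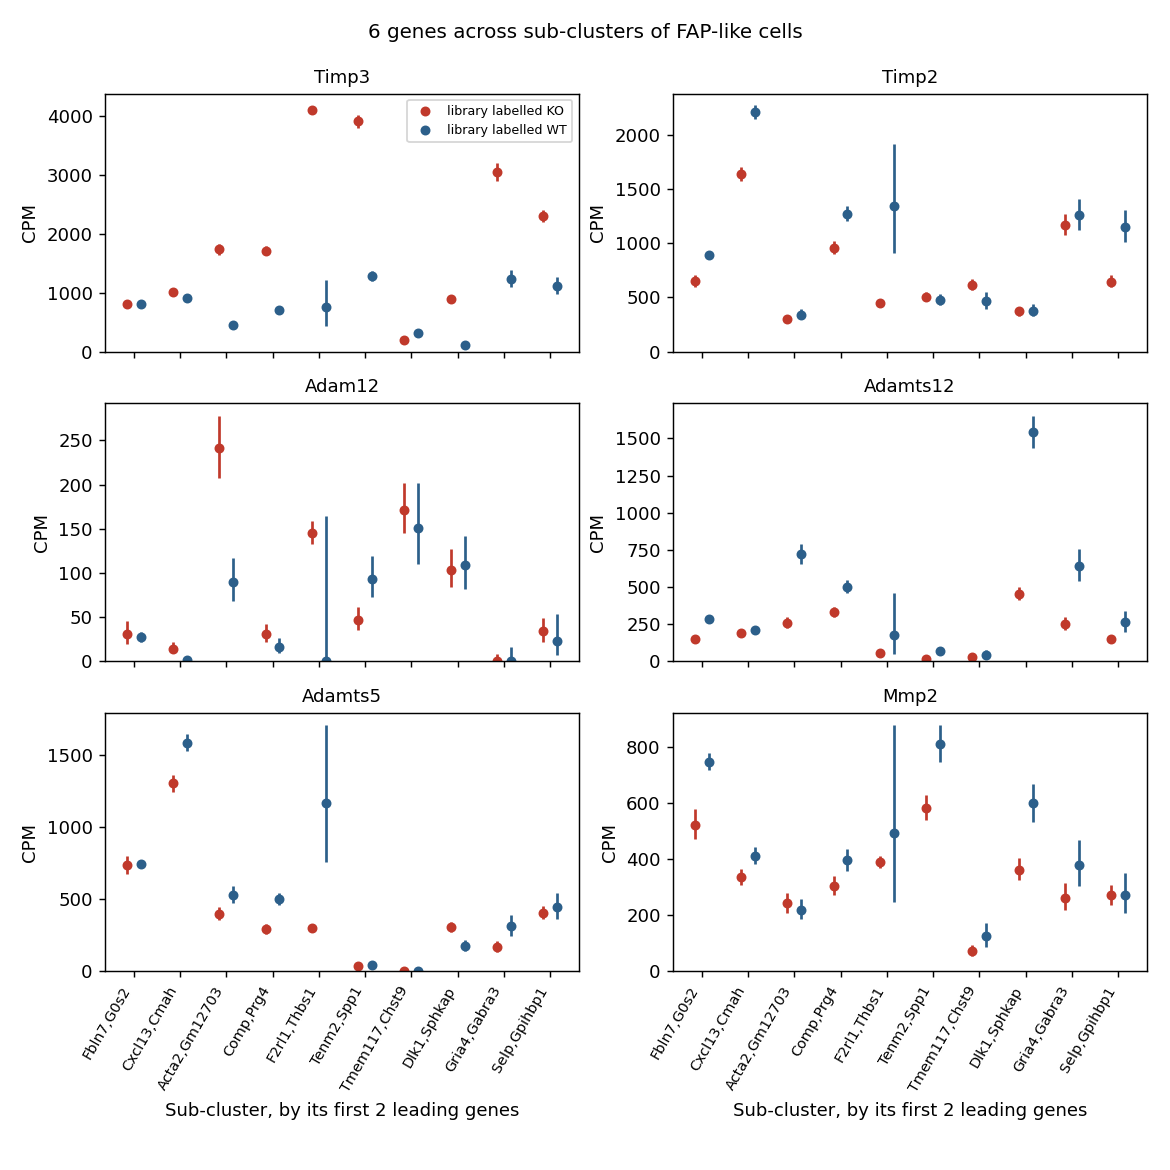
Points give CPM of 6 genes in 10 sub-clusters of FAP-like cells, red (left of each pair) for the KO-labelled library and blue for the WT-labelled library, with 95% Poisson counting intervals; the F2rl1/Thbs1 sub-cluster has 3 cells in the WT-labelled library. Adamts12 is lower in the KO-labelled library in each of the 8 sub-clusters with at least 30 cells in both libraries, and Timp3 ranges from equal to several-fold higher, apart from 1 sub-cluster where it is lower.

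In 8 sub-clusters with at least 30 cells in each library the same genes could be set side by side within a sub-cluster. Not each of the 8 matched a listed state of FAP-like cells. The best mean log2 ratio of a state's markers over the other FAP-like cells was -0.55 in the sub-cluster led by Acta2. It was -1.99 in the one that expresses Coch. Adamts12 was lower in the KO-labelled library in 8 of 8, at least 1.5-fold in 6, with log2 ratios between -1.90 and -0.14. In the Dlk1 sub-cluster it stood at 454 CPM in the KO-labelled library and 1543 CPM in the WT-labelled library. Adamts2 was also lower in 8 of 8, at least 1.5-fold in 2. Adam19, Adamts10 and Adamtsl5 were each lower in 7 of 8, and at least 1.5-fold in 5, 6 and 6. Mmp2 and Adamts5 were also lower in 7 of 8, and at least 1.5-fold in 2 each.

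Timp3 was higher in 7 of the 8 and at least 1.5-fold in 5. It stood at 3915 CPM in the KO-labelled library and 1292 CPM in the WT-labelled library in the sub-cluster led by Tenm2, where haemoglobin genes were also among the leading genes, and at 1738 and 456 CPM in the one led by Acta2, which also held the mural genes Rgs5 and Tagln among its leading genes. Over all FAP-like cells 5 erythroid markers summed to 94.2 and 425 CPM and 12 mural markers to 575 and 568 CPM, and their part in the result was not tested. In the Fbln7/G0s2 sub-cluster Timp3 stood at 816 and 815 CPM, and in the Pi16 sub-cluster (led by Cxcl13) at 1012 and 918 CPM. These states, which include the Pi16-expressing cells often described as the most progenitor-like fibroblasts, showed little difference. In the sub-cluster that expresses Coch, Timp3 was lower, at 193 CPM in the KO-labelled library and 322 CPM in the WT-labelled library.

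Timp2 reached 1.5-fold in none of the 8, with log2 ratios between -0.46 and 0.39. With the sub-clusters weighted equally its log2 ratio was -0.23, and that of Adamts5 was -0.27, against -0.64 and -0.83 over all FAP-like cells. Adamts5 was lower in 7 of the 8 and higher only in the Dlk1 sub-cluster, at a log2 ratio of 0.78. Timp1 was higher in 6 of 8 and at least 1.5-fold lower in the other 2, down to a log2 ratio of -2.44. Adam12 was higher in 5 of 8 and at least 1.5-fold lower in 1, at a log2 ratio of -0.97. The equal-weight log2 ratios of Timp1 and Adam12 were 0.39 and 0.38. In the Fbln7/G0s2 sub-cluster Timp1 stood at 52.0 CPM in the KO-labelled library and 7.38 CPM in the WT-labelled library, and in the Acta2 sub-cluster Adam12 stood at 241 and 89.9 CPM. Mmp3 stood at 648 and 77.5 CPM in the Gria4 sub-cluster, which held 306 of its 552 UMIs in the KO-labelled library but 18 of 250 in the WT-labelled library. The Fbln7/G0s2 sub-cluster held 28 of its UMIs in the KO-labelled library and 150 in the WT-labelled library, and in the Acta2 sub-cluster Mmp3 was lower, at 6.41 and 63.1 CPM. Timp4 was at most 12.8 CPM in each of these 8 sub-clusters in both libraries, and stood at 443 and 246 CPM in the sub-cluster led by the endothelial genes Selp and Gpihbp1, with 57 and 27 cells.

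Over the sub-clusters weighted equally, 3 of 31 genes passed 1.5-fold upward and 6 downward, against 6 and 13 of 32 by summed counts. Over all genes 6.53% and 7.91% passed in this weighting. Without the F2rl1/Thbs1 sub-cluster, 9 of 32 genes were at least 1.5-fold lower and 7.16% of all genes were. Timp3, Adamts12, Adam19 and Adam33 stayed past 1.5-fold under 15 of 15 alternatives tried, with log2 ratios of 1.11 to 1.66, -1.29 to -0.94, -1.12 to -0.82 and -1.45 to -0.76. So did Timp4 (1.00 to 2.30), Mmp19 (0.92 to 1.20) and Adamtsl5 (-0.80 to -0.61). The lowest Timp4 ratio came without cells that held 3 or more endothelial markers. Timp4 lay below the CPM floor in each of the 8 compared sub-clusters and far above it in the Selp/Gpihbp1 sub-cluster. That sub-cluster held 5.34% of FAP-like cells labelled KO and 1.75% of those labelled WT. Its part in the Timp4 ratios was not tested on its own. Within the 8 sub-clusters, however, Adam33 was higher in 2, up to a log2 ratio of 1.13, and at least 1.5-fold lower in 3.

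Other genes of the same pathway were taken from 4 lists. Of 21 activators and inhibitors outside the family, 16 passed the floor in FAP-like cells, of which 3 reached 1.5-fold upward and 2 downward in the KO-labelled library, against 11.8% and 11.1% of all genes past the floor. Among the higher ones were Plaur, the urokinase receptor, at 53.2 CPM in the KO-labelled library and 14.1 CPM in the WT-labelled library (log2 ratio 1.84), and Tfpi2, a serine protease inhibitor, at 71.3 and 41.5 CPM (0.76). The lower ones were the proprotein convertase Pcsk6 at 205 and 376 CPM (-0.87) and Bmp1, a procollagen C-proteinase, at 112 and 176 CPM (-0.64). Reck, a membrane-bound inhibitor of several Mmps, had a log2 ratio of -0.37. Of 9 partners of ADAM10 and ADAM17, 2 passed the floor and neither reached 1.5-fold. Of 11 shed ligands, 3 passed and Hbegf was higher, at 45.0 and 28.6 CPM (0.64).

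Of 12 matrix substrates 11 passed the floor, with 2 higher and 4 lower in FAP-like cells labelled KO, against the same 11.8% and 11.1% of all genes. The fibrillar collagen genes Col1a1 (701 CPM in the KO-labelled library and 1423 CPM in the WT-labelled library, log2 ratio -1.02), Col1a2 (1248 and 2504 CPM, -1.004) and Col3a1 (1572 and 3202 CPM, -1.03) were lower, as was elastin, Eln (46.4 and 109 CPM, -1.21). Vcan, the versican substrate of several ADAMTS enzymes, was higher at 1034 and 537 CPM (0.95), and Fbn2, a fibrillin of developing tissue, at 46.1 and 10.5 CPM (2.03).

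**Figure D5:**
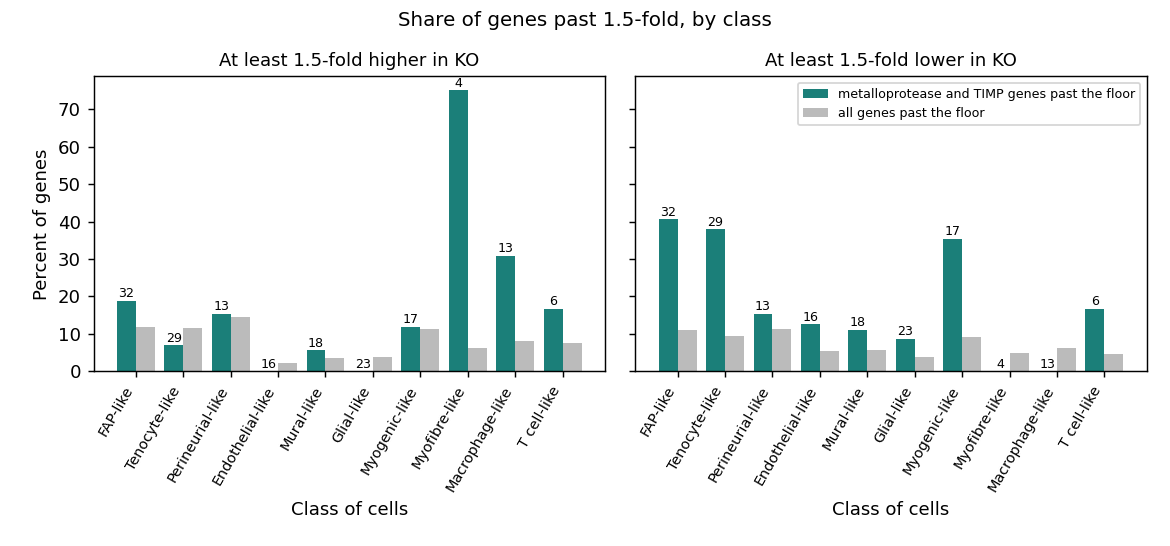
Bars give the percentage of genes past the level floor that were at least 1.5-fold higher (left panel) or lower (right panel) in the KO-labelled library, for metalloprotease and TIMP genes (green, their number above the bar) and for all genes (grey), in 10 classes. In FAP-like, tenocyte-like and myogenic-like cells the green bar for lower genes stands at 40.6%, 37.9% and 35.3%, against grey bars of 11.1%, 9.55% and 9.22%.

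In tenocyte-like cells, 576 in the KO-labelled library and 766 in the WT-labelled library, 29 genes passed the floor. At least 1.5-fold higher were 2 of them, Timp1 and Timp4, and 11.5% of all genes were. At least 1.5-fold lower were 11, and 9.55% of all genes were. Timp1 stood at 723 CPM in the KO-labelled library and 271 CPM in the WT-labelled library, a log2 ratio of 1.41 (interval 1.31 to 1.52). It was higher in both tenocyte-like clusters, at 811 and 335 CPM in the one led by Col22a1 and at 107 and 52.9 CPM in the one led by Wif1. Timp4 stood at 31.6 and 11.7 CPM, a log2 ratio of 1.36, beside endothelial marker sums of 403 and 211 CPM, with none of the 12 at 0 and 12 of 12 higher in the KO-labelled library; its log2 ratio was 0.96 without cells that held 3 or more of those markers.

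Lower by more than 2-fold were 5 genes of tenocyte-like cells, against 2.7% of all genes: Mmp23 (12.3 CPM in the KO-labelled library and 36.3 CPM in the WT-labelled library, log2 ratio -1.49), Adamts2 (24.8 and 63.4 CPM, -1.32), Adamts12 (10.9 and 25.9 CPM, -1.18), Adam19 (12.3 and 28.5 CPM, -1.15) and Mmp28 (10.3 and 23.4 CPM, -1.11). Mmp2, lower in FAP-like cells, stood at 594 and 598 CPM here, a log2 ratio of -0.01 (interval -0.09 to 0.07). Timp3 stood at 1212 and 912 CPM, a log2 ratio of 0.41, and Timp2 at 1046 and 1403 CPM, -0.42. With single cells gated by markers in place of clusters, the log2 ratio was -0.005 for Adamts12 and -0.58 for Adam19, both short of 1.5-fold, and -1.44, -1.18 and -0.92 for Mmp23, Mmp28 and Adamts2. In that gate 5 of 22 genes were lower, and with cells thinned to 2000 UMIs 6 of 22 were. The share of all genes lower under these settings is not given here, so these counts have no background beside them.

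In myogenic-like cells, 1072 in the KO-labelled library and 883 in the WT-labelled library, 17 genes passed the floor. At least 1.5-fold higher were 2, Timp3 and Timp4, and 11.4% of all genes were. At least 1.5-fold lower were 6, and 9.22% of all genes were. Timp3 stood at 705 CPM in the KO-labelled library and 221 CPM in the WT-labelled library, a log2 ratio of 1.67 (interval 1.55 to 1.79), and a UMI was found in 66.7% and 33.1% of the cells, or 48.6% and 25.4% of thinned cells. It was higher in both myogenic-like clusters, at 706 and 206 CPM in the one led by Gal and Myf5 and at 702 and 294 CPM in the one led by Tenm4 that expresses Calcr. The 12 endothelial markers summed to 458 and 308 CPM, 12 of 12 higher in the KO-labelled library. Without cells that held 3 or more of them the log2 ratio of Timp3 was 1.75, and that of Timp4, 1.04 at 23.9 and 11.1 CPM, was 0.91. Timp4 stood at 8.93 and 8.85 CPM in the Gal/Myf5 cluster, which held 68.9% and 74.2% of the class, and at 80.8 and 21.4 CPM in the Tenm4 cluster, from 124 and 11 UMIs.

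Adamts10 and Adamts20 were the myogenic-like genes lower by more than 2-fold, against 2.49% of all genes. Adamts10 stood at 19.3 CPM in the KO-labelled library and 53.0 CPM in the WT-labelled library, a log2 ratio of -1.41, and was lower in both clusters. Adamts20 stood at 16.6 and 45.0 CPM, a log2 ratio of -1.39. Adamts5, Mmp2, Adamts12 and Adam22 made up the other 4, with log2 ratios of -0.97, -0.86, -0.75 and -0.59.

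In mural-like cells (2347 in the KO-labelled library and 1652 in the WT-labelled library) 1 of 18 genes was at least 1.5-fold higher, against 3.47% of all genes, and 2 were lower, against 5.6%. The higher gene was Timp3, at 3620 CPM in the KO-labelled library and 1969 CPM in the WT-labelled library, a log2 ratio of 0.88 (interval 0.85 to 0.91). In the 5 mural-like clusters its log2 ratio was 0.77 in the one led by Kcnj8, a pericyte gene, 0.64 in the one led by Pln, a smooth muscle gene, 0.69, 0.96 and 0.10. Endothelial markers summed to 1299 and 939 CPM in this class, and without cells that held 3 or more of them the log2 ratio was 0.71. Adamtsl1 and Adamts15 were lower, with log2 ratios of -0.92 and -0.59.

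Endothelial-like cells were the largest class, with 7332 cells in the KO-labelled library and 3381 in the WT-labelled library. None of 16 genes was at least 1.5-fold higher, against 2.19% of all genes, and 2 were lower, against 5.48%. Adamts6 stood at 15.8 CPM in the KO-labelled library and 41.2 CPM in the WT-labelled library, a log2 ratio of -1.33 (interval -1.57 to -1.20), and was lower in all 5 endothelial-like clusters, by 0.56 to 1.36 on the log2 scale. It was highest in the cluster that expresses the arterial gene Gja5, at 43.5 and 82.3 CPM. That cluster held 16.6% of endothelial-like cells in the KO-labelled library and 27.4% in the WT-labelled library. The part of these shares in the class ratio was not tested. Mmp28 stood at 13.2 and 25.9 CPM, a log2 ratio of -0.92, and was lower in 4 of the 5 clusters.

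The abundant endothelial genes differed less. Timp3 stood at 2338 CPM in the KO-labelled library and 1985 CPM in the WT-labelled library (log2 ratio 0.24), Timp4 at 1081 and 935 CPM (0.21), and Adamts1 at 1138 and 1130 CPM (0.01). Adamts9, an ADAMTS needed for vessel and organ development, stood at 1953 and 1432 CPM (0.45) and was higher in all 5 clusters. Adamts1 was also higher in all 5 clusters, with log2 ratios of 0.09 to 0.66, unlike its class ratio of 0.01. It was most abundant in the arterial cluster, at 2277 and 2134 CPM, and the part of the cluster shares in the class ratio was not tested. Timp4 marked the clusters led by the capillary genes Car4 and Gpihbp1, at 1622 and 1612 CPM in one and 2149 and 2493 CPM in the other, and stood at 134 and 134 CPM in the arterial cluster and 124 and 100.03 CPM in the one led by Sele and Selp, genes of venules. The shares of these clusters within the class differed, the first capillary cluster holding 38.8% of endothelial-like cells in the KO-labelled library and 17.4% in the WT-labelled library.

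In glial-like cells (842 in the KO-labelled library and 529 in the WT-labelled library) none of 23 genes was at least 1.5-fold higher, against 3.87% of all genes, and Mmp2 and Adam22 were lower, against 3.73%. Mmp2 stood at 21.3 and 45.4 CPM, a log2 ratio of -1.06, and was lower in the 3 glial-like clusters. Markers of FAP-like cells, the class with much Mmp2, summed to 154 CPM in glial-like cells of the KO-labelled library and 251 CPM in those labelled WT, where 2 of the 12 were at 0, and their part in the result was not tested. Timp3 stood at 837 and 838 CPM, and Adam23 had a log2 ratio of -0.22.

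Perineurial-like cells, of the sheath around nerve fascicles, numbered 142 in the KO-labelled library and 163 in the WT-labelled library. At least 1.5-fold higher were 2 of 13 genes, against 14.4% of all genes, and 2 were lower, against 11.3%. Adamts9 stood at 758 CPM in the KO-labelled library and 150 CPM in the WT-labelled library, a log2 ratio of 2.33 (interval 1.98 to 2.71), from 569 and 73 UMIs. It was found in 58.5% and 22.7% of the cells (52.7% and 19.4% of thinned cells), and its log2 ratio lay between 2.22 and 2.65 under 13 alternatives. Timp3 had a log2 ratio of 0.77 there, but 30.5% of its UMIs in the WT-labelled library came from a single cell and the sign turned to -1.46 with cells gated by markers.

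In macrophage-like cells (156 in the KO-labelled library and 274 in the WT-labelled library) 4 of 13 genes were at least 1.5-fold higher, against 8.06% of all genes, and none was lower, against 6.11%. They were Timp4 (60.5 and 5.32 CPM, log2 ratio 3.28), Adamts1 (84.8 and 13.6 CPM, 2.55), Adamts9 (84.2 and 14.8 CPM, 2.43) and Timp3 (127 and 30.7 CPM, 2.01). All 4 are abundant in endothelial-like cells, and 12 endothelial markers summed to 650 CPM in macrophage-like cells of the KO-labelled library and 170 CPM in those labelled WT, where 1 of the 12 was at 0. Without cells that held 3 or more of those markers, 18.6% and 3.28% of the class, these 4 genes no longer passed the floor, and none of the 9 genes that did was called. Their log2 ratios there were 2.29 for Timp4, 1.88 for Adamts9, 1.42 for Adamts1 and 0.62 for Timp3. Markers of FAP-like cells summed to 404 CPM in macrophage-like cells of the KO-labelled library and 145 CPM in those labelled WT. Of these 12 markers, 9 were higher in the KO-labelled library. The part of RNA of other classes in the result was not tested. Other genes past the floor had log2 ratios of 0.34 for Adam8, -0.07 for Mmp12, 0.49 for Mmp19, 0.10 for Adam19 and -0.53 for Timp2.

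In T-cell-like cells (154 in the KO-labelled library and 147 in the WT-labelled library) 1 of 6 genes was higher, Timp3, against 7.6% of all genes, and 1 was lower, Adamts9, against 4.67%. Timp3 stood at 157 and 39.3 CPM, with 69.6% of the UMIs of the WT-labelled library in a single cell, and Adamts9 at 83.9 and 186 CPM, with 47.2% and 49.5% in a single cell. The 12 endothelial markers summed to 646 and 379 CPM, all higher in the KO-labelled library. Without cells that held 3 or more of them the log2 ratio of Timp3 was 0.72, against 1.97 with all cells, and that of Adamts9 was 0.54, against -1.14. In myofibre-like barcodes (778 in the KO-labelled library and 507 in the WT-labelled library), which hold pieces or RNA of muscle fibres, 3 of 4 genes were higher, Adamts9, Timp3 and Adamts1, against 6.15% of all genes, and none was lower, against 4.89%. Endothelial markers summed to 911 and 848 CPM there. The sign of Adamts9 turned when cells were gated by markers in T-cell-like cells (0.11) and macrophage-like cells (-0.79), and in myofibre-like barcodes the signs of Adamts9 (-0.10) and Timp3 (-0.24) turned when each library was clustered alone.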

How the data were processed

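Per the labels' protocols, muscles were digested for 1 h at 37 °C, viable cells were sorted (about 200000 per sample) and 3′ libraries were sequenced to about 40000 reads per cell. The deposited files hold counts, raw UMIs per gene and barcode made by the authors; per the file headers Cell Ranger 9.0.0 (KO) and 8.0.0 (WT) made them, and the submitters' processing notes name 9.0.0 and mm10. Because 1735 gene identifiers are not in GENCODE M21, no gene coordinates from the files are given.

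Barcodes under 500 genes, over 10% mitochondrial UMIs or called doublets by Scrublet (scanpy 1.11.5) were dropped. Doublet calls were 3.18% in the KO-labelled library and 0.801% in the WT-labelled library, against 7.812% and 4.544% expected, so doublets remain. Cells of both libraries were clustered together, without the genes described, on 2000 variable genes, 30 components and 20 neighbours (leidenalg 0.10.2, resolution 1, and 0.5 for sub-clusters), and named from fixed marker lists. UMIs were summed per class and library and scaled to CPM, log2 ratios used a pseudocount of 1 CPM, and ratio intervals, without a pseudocount, were exact conditional binomial. Shares of cells used exact Clopper-Pearson intervals. Thinned values used only cells with at least 2000 UMIs, so the cells behind them are a part of each class. Genes past 20 CPM in 1 library and 100 UMIs over both were called at 1.5-fold. The calculation was checked on simulated counts.

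Named were all TIMPs, genes past the floor and 1.5-fold apart in FAP-like cells or 2-fold apart in other classes, and genes at least 3-fold above the next class in both libraries; others were named after their values were seen. The genes and lists were chosen with earlier results of these data known. Protein sequences were not used here. Some items are not reported here.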

Additional observations from a re-analysis of the deposited data

How the results depend on the processing

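The tried alternatives were stricter and looser cell filters, doublets kept, clustering of each library alone, finer clustering, clustering with the described genes, cells gated by markers, trimmed-mean scaling, thinning to 2000 UMIs, pseudocounts of 0.1 and 5, other floors, leaving out the top cell of each gene, and, in FAP-like cells, 2 treatments of the sub-clusters; leaving out cells with 3 or more endothelial markers was added after seeing the data. Of 302 counts, 219 stayed within 1.5 times and 83 moved, and of 775 log2 ratios 659 stayed near, 109 moved and 7 reversed, meaning that a ratio past 1.5-fold changed sign. Apart from equal weights, given above, the counts that follow have no share of all genes beside them. They do not show whether the genes described differ from other genes. The setting with no floor also admits genes with very few UMIs. In FAP-like cells the 6 higher genes became 10 with no floor, 3 with a floor of 50 CPM and 200 UMIs and 3 with sub-clusters weighted equally. The 13 lower genes became 8 with the higher floor and 6 with equal weights. In tenocyte-like cells the 11 lower genes became 5 when gated, 6 when thinned, 20 with no floor and 7 with the higher floor, and the 2 higher genes became 1 with the higher floor and 1 without endothelial-marked cells. In endothelial-like cells the 2 lower genes became 4 when thinned, 8 with no floor and 0 with the higher floor, and 2 genes were higher with no floor. In myogenic-like cells the 2 higher genes became 1 when gated, thinned, under the higher floor or without endothelial-marked cells, and 14 with no floor, where 13 were lower; Timp4, the call lost, had log2 ratios of 0.85 to 1.33 over its 13 alternatives, all past 1.5-fold. Gating reversed Timp3 in perineurial-like cells (-1.46), Adamts9 in macrophage-like cells (-0.79) and Adamts9 in T-cell-like cells (0.11), which leaving out endothelial-marked cells also reversed (0.54). In myofibre-like barcodes Adamts9 reversed under the strict filter (-0.03) and with libraries clustered alone (-0.10), as did Timp3 (-0.24) in the last; Timp4, short of 1.5-fold there (-0.17), ranged from -1.84 with libraries clustered alone to 3.40 when gated. The cause of these reversals was not tested. No paired analysis was possible because each genotype has 1 library.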
